A study of Mus musculus with 6 samples.

Results

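Integrins are the cell-surface receptors that hold a cell to its matrix and to other cells. The 10 integrin genes described here, Itgam, Itgax, Itgal, Itgb2, Itga4, Itga5, Itga6, Itgav, Itgb1 and Itgb5, were taken by symbol from a table of 54347 gene rows, in which each stood on 1 row. They were measured in microglia, the macrophages of the brain, in 3 Plcg2-/- and 3 Plcg2+/+ libraries, all from C57BL/6 littermates 2 to 3 days old. Per the labels, both genotypes were handled alike: forebrain glia grew with 10% serum and the myeloid growth factor GM-CSF at 5 ng/mL, microglia were shaken loose between days 12 and 13, and they rested for 72 h or longer in medium holding less of each (1% serum, 0.5 ng/mL GM-CSF). The sources used here do not give which part of Plcg2, the gene of phospholipase C gamma 2, was deleted. Nor do the labels say whether a replicate is an animal or a culture of its own. P-values thus measure the spread between these libraries, part of which may be technical. Sex-linked transcripts, given below, differed between libraries of each genotype.

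An integrin is a pair of 1 α and 1 β subunit. On leukocytes the β2 subunit (Itgb2) pairs with αL (Itgal), αM (Itgam) or αX (Itgax), and these pairs bind ICAM adhesion molecules, fibrinogen and complement fragments. Itgam encodes CD11b and Itgax CD11c, surface proteins widely used to mark macrophages and activated microglia. The β1 subunit (Itgb1) pairs with α4, α5, α6 and αv for fibronectin, laminin and VCAM1, and αv (Itgav) also pairs with β3 and β5 for vitronectin and osteopontin. Integrins of myeloid cells signal through Src-family and Syk kinases, and phospholipase C gamma 2 is one of the enzymes downstream of these.

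Values are TPM, transcript abundances corrected for transcript length and scaled to the same total in every library. Genes can thus be ordered by level, but the number of reads behind a value is unknown. Values of a genotype are given in the order of libraries 1 to 3. For the targeted gene Plcg2 they were 16.0, 16.7 and 16.1 TPM in Plcg2-/-, against 45.2, 39.7 and 54.9 TPM in Plcg2+/+, with no overlap. General macrophage genes were abundant in both genotypes, and Csf1r, the M-CSF receptor gene, averaged 687 ± 89.8 TPM in Plcg2-/- and 580 ± 94.4 TPM in Plcg2+/+ (SD, n = 3 each). The microglia-defining genes Tmem119, Sall1 and Siglech were at most 0.569 TPM in any Plcg2-/- library and at most 1.47 TPM in any Plcg2+/+ library. Among other microglial genes with the smallest p, Fcrls was 37.3 TPM in Plcg2-/- and 2.80 TPM in Plcg2+/+, and P2ry12 was 23.8 TPM in Plcg2-/- and 5.68 TPM in Plcg2+/+ (means, n = 3 each). Adgre1 was 444 TPM in Plcg2-/- and 287 TPM in Plcg2+/+, while Olfml3 averaged 1.03 TPM in Plcg2-/- and 18.6 TPM in Plcg2+/+. Cx3cr1, Aif1 and Spi1 were named after their values were seen. Cx3cr1, a microglial gene, averaged 0.244 TPM in Plcg2-/- and 2.06 TPM in Plcg2+/+. Aif1 averaged 99.6 TPM in Plcg2-/- and 19.0 TPM in Plcg2+/+, and Spi1 415 TPM in Plcg2-/- and 267 TPM in Plcg2+/+. Of 15 microglia and macrophage markers 12 were tested, and 5 were called higher and 2 lower by the test described below. These are 41.7% higher, against 15.6% of all tested genes, and 16.7% lower, against 5.31%. Without Plcg2-/- library 1, Adgre1 did not pass that test (limma adjusted p = 0.0504). P2ry12 and Cx3cr1 did not pass without Plcg2-/- 1 or 3 or Plcg2+/+ 1 (limma adjusted p = 0.0525 to 0.0786). Spi1 did not pass without any of these or Plcg2+/+ 2 (limma adjusted p = 0.0616 to 0.0925). Aif1 did not pass on leaving out any library other than Plcg2-/- 3 (limma adjusted p = 0.0615 to 0.133). With Y-linked TPM, given below, as a covariate, P2ry12, Cx3cr1 and Aif1 did not pass (limma adjusted p = 0.0525, 0.0563 and 0.0872). Adgre1, Aif1 and Spi1 did not pass after median-of-ratios scaling, described below (limma adjusted p = 0.0721, 0.0616 and 0.0563). Summed over 15 microglia and macrophage markers, TPM was 4037 to 4676 in Plcg2-/- and 3708 to 4898 in Plcg2+/+. Sums of 10 markers each also overlapped for astrocytes (Plcg2-/- 40.2 to 58.4 TPM, Plcg2+/+ 30.1 to 59.2 TPM), the oligodendrocyte lineage (Plcg2-/- 93.2 to 127 TPM, Plcg2+/+ 70.7 to 138 TPM), neurons (Plcg2-/- 5.74 to 12.8 TPM, Plcg2+/+ 3.98 to 14.9 TPM) and neutrophils (Plcg2-/- 86.4 to 98.9 TPM, Plcg2+/+ 38.7 to 94.3 TPM). Sums were higher in every Plcg2-/- library for 11 endothelial and fibroblast markers (Plcg2-/- 18.6 to 25.8 TPM, Plcg2+/+ 7.57 to 9.38 TPM), 10 lymphocyte markers (Plcg2-/- 2.35 to 6.11 TPM, Plcg2+/+ 1.24 to 1.94 TPM) and 10 dendritic cell markers (Plcg2-/- 192 to 313 TPM, Plcg2+/+ 113 to 141 TPM). Each of these differences was carried by 1 gene, left out in sums chosen after seeing the values. Without Kdr the endothelial and fibroblast sum was 1.66 to 4.06 TPM in Plcg2-/- and 1.49 to 3.28 TPM in Plcg2+/+, and without the class II gene H2-Ab1 the dendritic cell sum was 82.0 to 108.5 TPM in Plcg2-/- and 93.5 to 115 TPM in Plcg2+/+, both overlapping. Without Cd4 the lymphocyte sum was 0.405 to 0.475 TPM in Plcg2-/-, below the 0.983 to 1.74 TPM in Plcg2+/+. The dendritic cell genes Batf3 and Clec9a averaged 4.596 and 1.59 TPM in Plcg2-/-, against 11.8 and 9.14 TPM in Plcg2+/+. The T-cell genes Cd3d, Cd3e and Cd3g and the neutrophil genes Ly6g, Elane and Retnlg were at 0 in all 6 libraries, and the part of any of these cells in the integrin results was not tested. Mitochondrially encoded transcripts took 7.30 ± 2.01% of all TPM in Plcg2-/- and 15.5 ± 1.87% in Plcg2+/+ (SD, n = 3 each). Summed Y-linked TPM was 58.6, 0.783 and 0.994 in Plcg2-/- and 0.371, 107 and 112 in Plcg2+/+. The X-linked gene Xist, named after its values were seen, was 18.4, 49.4 and 40.2 TPM in Plcg2-/-. In Plcg2+/+ Xist was 50.5, 0.747 and 1.02 TPM, so libraries of each genotype were unlike in sex-linked transcripts. The 6 integrin calls below were the same after rescaling without the mitochondrial genes and with Y-linked TPM as a covariate.

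Of the 10 integrin genes, 5 were lower in Plcg2-/- microglia, 1 was higher and 4 did not pass the test. Itgax, Itgam, Itgb2, Itga5 and Itgav fell, Itga4 rose, and the others were Itgal, Itgb1, Itga6 and Itgb5. This test does not pair libraries, and with the replicate number as a block Itgb5 also passed as lower (limma adjusted p = 0.00838). All 10 genes had a mean of at least 1 TPM and were tested with limma on log2(TPM + 1) among 12652 genes in all, with a Benjamini-Hochberg adjusted p below 0.05 as the threshold. Of the 10, 6 were called in either direction, where 20.9% of all tested genes were. Of these, 5 were called lower, where 5.31% of all tested genes were called lower, and 1 was called higher, where 15.6% of all tested genes were called higher. All 3 Plcg2-/- values lay below all 3 Plcg2+/+ values for 7 of the 10 genes, against 10.9% of all tested genes, and above them for 1 gene, against 32.4%. The median log2 fold change, Plcg2-/- over Plcg2+/+, was -1.09 over the 10 genes and 0.19 over all tested genes. These genes were chosen with earlier results of these data known, so the counts are a description. In bulk RNA, fewer cells with a transcript and less of it per cell cannot be told apart.

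**Figure D1:**
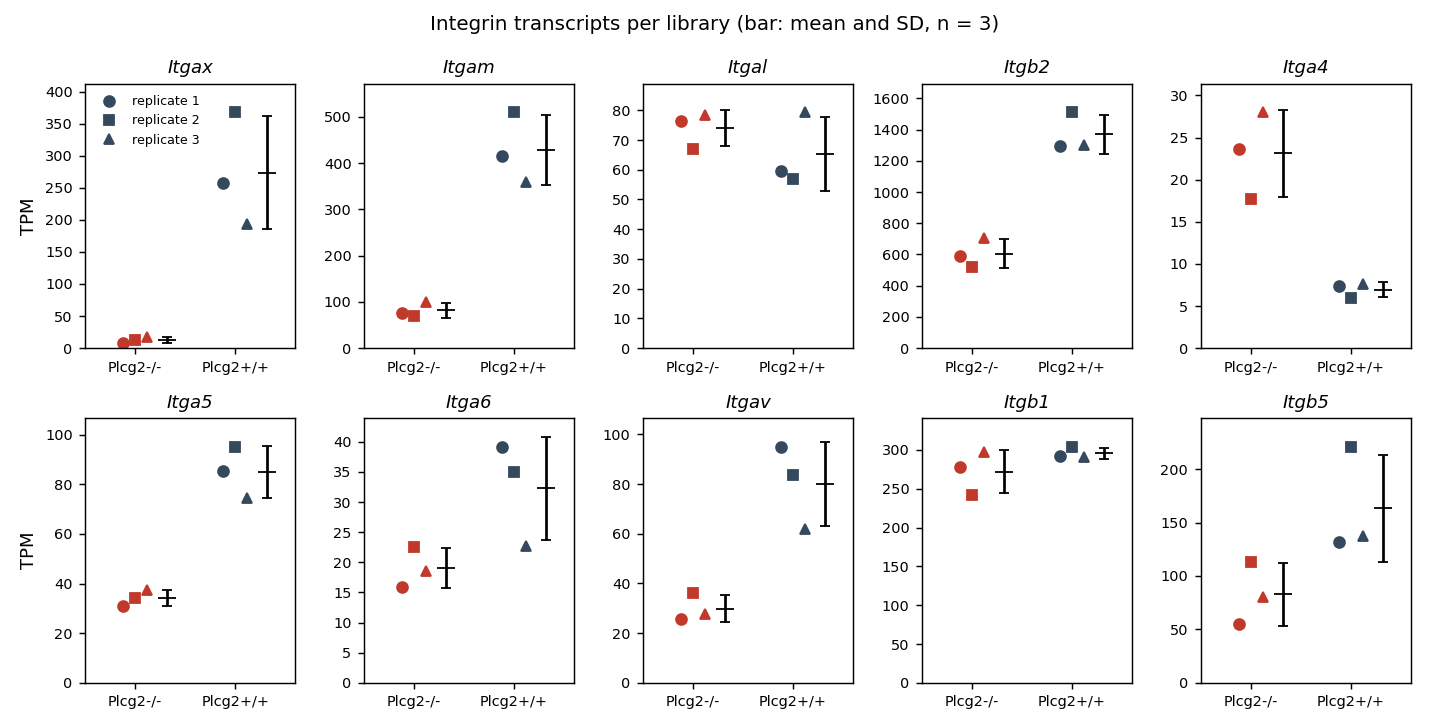
TPM of the 10 integrin genes in each library, Plcg2-/- left and Plcg2+/+ right in each panel, every axis starting at 0. Marker shapes give the replicate number, and the bar gives the mean and SD of 3 libraries. The Plcg2-/- values lie below the Plcg2+/+ values for 7 genes and above them for Itga4, and the groups overlap for Itgal and Itgb1.

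Itgax showed the largest change of the 10. Its transcripts stood at 7.58, 12.8 and 17.2 TPM in Plcg2-/-, against 258, 368 and 194 TPM in Plcg2+/+. Even the highest Plcg2-/- library was far below the lowest Plcg2+/+ library, although Itgax had the widest spread of the 10 within each genotype, with a highest-to-lowest ratio of 2.27 in Plcg2-/- and 1.90 in Plcg2+/+. The mean in Plcg2-/- was 4.59% of that in Plcg2+/+. Itgax fell by 4.36 ± 0.33 log2 units (SE; limma adjusted p = 0.000922). The gene (ENSMUSG00000030789.9) lies on GRCm38 chromosome 7 at 128129547 to 128150657, plus strand, and is protein coding.

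Itgam, whose product is the αM chain of complement receptor 3, was 75.5, 70.1 and 99.97 TPM in Plcg2-/-, against 416, 511 and 359 TPM in Plcg2+/+. The groups did not overlap, and the Plcg2-/- mean was 19.1% of the Plcg2+/+ mean. Itgam fell by 2.38 ± 0.19 log2 units (SE; limma adjusted p = 0.000946). Its gene (ENSMUSG00000030786.18) occupies chromosome 7 at 128062640 to 128118491, plus strand, and ends 11056 bases before Itgax starts. A second annotated gene, Gm49368, runs on the same strand from 128062683 to 128128160, and 71.8% of its 4803 exonic bases lie in exons of Itgam, so reads of these genes can be split between them. Gm49368, named because of this overlap after its values were seen, was 2.21, 1.66 and 0.464 TPM in Plcg2-/-, against 23.5, 48.5 and 38.7 TPM in Plcg2+/+. With both rows added, an alternative chosen after seeing the data, the sum was 83.3 ± 15.2 TPM in Plcg2-/- and 466 ± 83.7 TPM in Plcg2+/+ (SD, n = 3 each), and it fell by 2.47 ± 0.18 log2 units (SE; limma adjusted p = 0.000906).

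Itgb2, the shared β chain of the leukocyte integrins, was the most abundant of the 10 genes in both genotypes. It measured 588, 521 and 707 TPM in Plcg2-/-, against 1294, 1513 and 1302 TPM in Plcg2+/+. All Plcg2-/- libraries were lower than all Plcg2+/+ libraries, and Itgb2 fell by 1.18 ± 0.15 log2 units (SE; limma adjusted p = 0.00391). It lies on chromosome 10 at 77530252 to 77565708, plus strand.

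Itgal, the αL chain of the receptor for ICAM1, did not pass the test. Its values were 76.3, 67.0 and 78.5 TPM in Plcg2-/- and 59.6, 56.8 and 79.4 TPM in Plcg2+/+. The ranges overlapped since Plcg2+/+ library 3 was the highest of the 6. The log2 fold change was 0.19, with a 95% interval of -0.17 to 0.55 (limma adjusted p = 0.400), and its sign turned after median-of-ratios scaling, to -0.02. Its position is chromosome 7 at 127296260 to 127335138, plus strand. Itgad, the fourth α gene that can pair with β2, starts 3719 bases after the end of Itgax and was at most 0.0524 TPM in Plcg2-/- and at most 0.149 TPM in Plcg2+/+. Itgam, Itgax and Itgad are related in sequence, and whether they share reads was not tested.

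The α genes of the β2 group stood in different proportions in each genotype, a measure that does not depend on how libraries are scaled against each other. Itgax made up 4.76, 8.56 and 8.80% of the summed TPM of Itgal, Itgam, Itgax and Itgad in Plcg2-/-, against 35.2, 39.3 and 30.7% in Plcg2+/+. With Gm49368 counted in the sum the mean share of Itgax was 7.31 ± 2.27% in Plcg2-/- and 33.5 ± 4.28% in Plcg2+/+ (SD, n = 3 each). Itgal made up 47.9, 44.7 and 40.1% in Plcg2-/-, against 8.13, 6.07 and 12.5% in Plcg2+/+. The share of Itgam was 47.4, 46.7 and 51.1% in Plcg2-/- and 56.7, 54.6 and 56.8% in Plcg2+/+. None of these 3 shares overlapped between the genotypes, and Itgal exceeded Itgam in Plcg2-/- library 1 alone. The ratio of the summed α TPM to Itgb2 TPM was 0.279 ± 0.00860 in Plcg2-/- and 0.557 ± 0.0665 in Plcg2+/+ (SD, n = 3 each), so the α transcripts were lower relative to Itgb2 in all 3 Plcg2-/- libraries than in any Plcg2+/+ library.

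**Figure D2:**
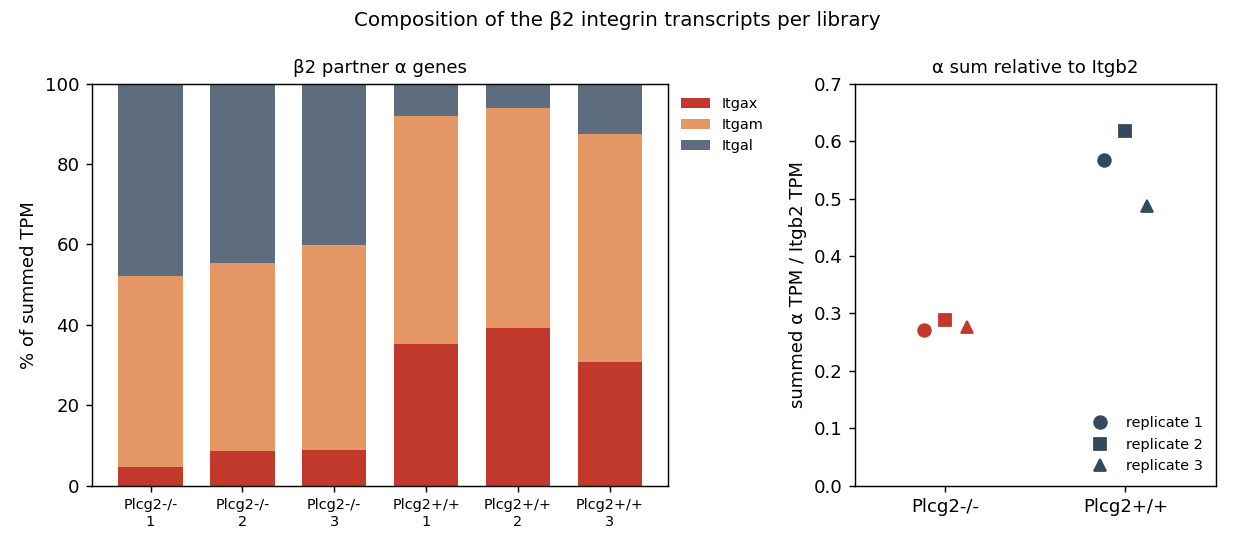
Left, the share of Itgax, Itgam and Itgal in the summed TPM of the α genes that pair with β2 (Itgad, at most 0.149 TPM, is in the sum and too small to see), per library, with Plcg2-/- at the left. Right, the summed α TPM divided by Itgb2 TPM, which is 0.271 to 0.288 in the Plcg2-/- libraries and 0.486 to 0.618 in the Plcg2+/+ libraries.

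Among the α genes that pair with β1, Itga4 was the only one of the 10 members that rose. Its product, with β1, binds VCAM1 and fibronectin and serves leukocyte entry into tissue. It was 23.7, 17.7 and 28.0 TPM in Plcg2-/-, against 7.32, 5.96 and 7.58 TPM in Plcg2+/+, so the lowest Plcg2-/- library was above the highest Plcg2+/+ library. Itga4 rose by 1.58 ± 0.19 log2 units (SE; limma adjusted p = 0.00277). The gene lies on chromosome 2 at 79255426 to 79333123, plus strand, and overlaps Cerkl on the opposite strand, which was at most 4.62 TPM in any library. The sources used here do not say whether reads were assigned by strand, and reads of such a pair cannot be told apart without it.

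Itga5, which with β1 forms the classical fibronectin receptor, moved the other way. It was 30.9, 34.4 and 37.5 TPM in Plcg2-/-, against 85.3, 95.2 and 74.4 TPM in Plcg2+/+. The groups did not overlap, and Itga5 fell by 1.28 ± 0.13 log2 units (SE; limma adjusted p = 0.00172). The ratio of Itga5 to Itga4 TPM was 1.53 ± 0.359 in Plcg2-/- and 12.5 ± 3.16 in Plcg2+/+ (SD, n = 3 each). Itga5 lies on chromosome 15 at 103344286 to 103366763, minus strand.

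Itga6, a laminin receptor chain, was 15.9, 22.5 and 18.6 TPM in Plcg2-/- and 39.2, 35.02 and 22.8 TPM in Plcg2+/+. Plcg2+/+ library 3 lay just above Plcg2-/- library 2, so the groups were apart by a small margin. The log2 fold change was -0.71, with a 95% interval of -1.24 to -0.18, and Itga6 did not pass (limma adjusted p = 0.0634). Without Plcg2+/+ 3 it passed (limma adjusted p = 0.0196). It also passed among genes with a mean of at least 5 TPM and after quantile normalization (limma adjusted p = 0.0482 and 0.0486). Of the 17 alternatives listed at the end, Itga6 did not pass in 13 (limma adjusted p up to 0.206). Its gene spans 71745616 to 71858416 on the plus strand of chromosome 2.

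Itgb1, the common β chain of this group, did not pass the test. It measured 278, 242 and 297 TPM in Plcg2-/- and 293, 304 and 291 TPM in Plcg2+/+, and the groups overlapped. The log2 fold change was -0.13, with a 95% interval of -0.40 to 0.15 (limma adjusted p = 0.464), and -0.34 after median-of-ratios scaling (limma adjusted p = 0.0806). In Plcg2-/- its ratio to Itgb2 TPM was 0.452 ± 0.0281, against 0.217 ± 0.0138 in Plcg2+/+ (SD, n = 3 each), and the libraries of the genotypes did not overlap in that ratio. Itgb1 lies on chromosome 8 at 128685654 to 128733200, plus strand.

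Itgav, the α chain of the vitronectin and osteopontin receptors, was 25.7, 36.2 and 27.9 TPM in Plcg2-/-, against 95.05, 83.8 and 61.8 TPM in Plcg2+/+. No library of the genotypes overlapped, and Itgav fell by 1.39 ± 0.20 log2 units (SE; limma adjusted p = 0.00556). Its gene is on chromosome 2 at 83724397 to 83806916, plus strand. For its partner Itgb5 the levels were 54.7, 113 and 80.4 TPM in Plcg2-/- and 131, 221 and 137 TPM in Plcg2+/+. Library 2 was the highest in each genotype, and the groups were still apart. Itgb5 had a log2 fold change of -0.99, with a 95% interval of -1.71 to -0.27, and did not pass (limma adjusted p = 0.0594). Deviations from genotype means correlated weakly between libraries of the same replicate number (r = 0.147 to 0.295), and what that number stands for is not known. With the replicate number as a block Itgb5 passed (limma adjusted p = 0.00838). It also passed without Plcg2-/- 2 (limma adjusted p = 0.0412), among genes with a mean of at least 5 TPM (limma adjusted p = 0.0471) and after quantile normalization (limma adjusted p = 0.0466). Of the 17 alternatives listed at the end, Itgb5 did not pass in 12 (limma adjusted p up to 0.177). Itgb5 is on chromosome 16 at 33829665 to 33949338, plus strand.

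Itgb3, the other common partner of αv and not among the 10 genes, was 1.87, 3.89 and 1.96 TPM in Plcg2-/-, against 15.1, 10.3 and 4.17 TPM in Plcg2+/+. Its mean fell to 2.57 ± 1.14 TPM in Plcg2-/-, against 9.85 ± 5.48 TPM in Plcg2+/+ (SD, n = 3 each), at the edge of the threshold (limma adjusted p = 0.0492). That call was lost after median-of-ratios scaling (limma adjusted p = 0.0511) and on leaving out any single library other than Plcg2+/+ 3. The limma adjusted p was then 0.170, 0.0597 and 0.149 for Plcg2-/- 1, 2 and 3, and 0.135 and 0.150 for Plcg2+/+ 1 and 2. Of the 17 other integrin subunit genes looked at, Itgb3 and Itgb7 reached a mean of 1 TPM over the 6 libraries. Itgb7, a partner of α4, was 1.73 ± 0.772 TPM in Plcg2-/- and 0.689 ± 0.665 TPM in Plcg2+/+ (SD, n = 3 each), overlapped between the genotypes and did not pass (limma adjusted p = 0.172). The remaining 15, among them the collagen receptor genes Itga1 and Itga2 and the platelet gene Itga2b, were at most 0.856 TPM in any library.

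**Figure D3:**
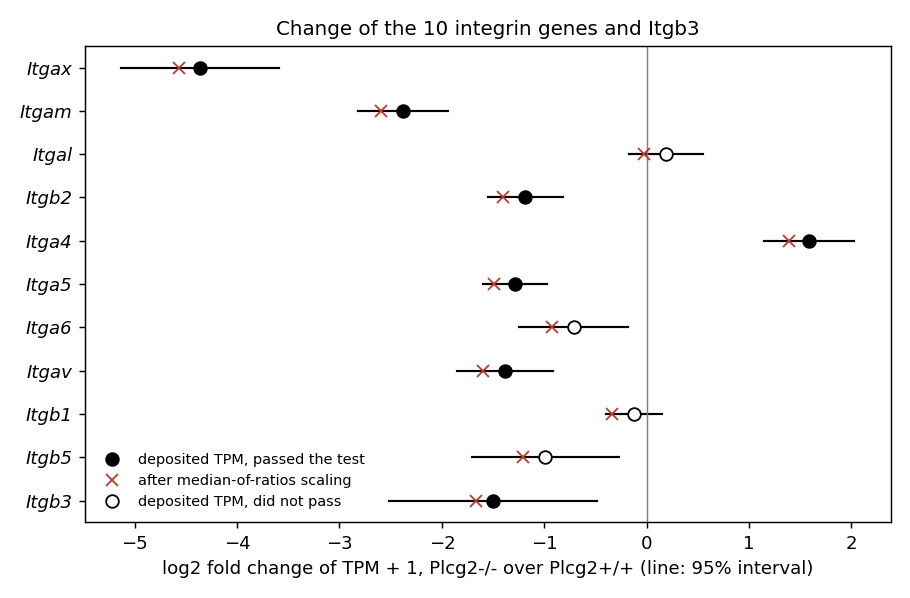
Log2 fold change of TPM + 1, Plcg2-/- over Plcg2+/+, for the 10 integrin genes and Itgb3, on the deposited TPM with its 95% interval (filled where the limma adjusted p was below 0.05) and after median-of-ratios scaling (crosses). The crosses lie to the left of the circles for all 11 genes, and the sign differs between the scalings for Itgal only.

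The scale on which libraries are compared moved all of these log2 values down by a similar amount. Median-of-ratios scaling put the median log2 fold change over all tested genes at -0.0045, where it was 0.19 on the deposited TPM. It changed the counts called among these genes to 975 higher and 993 lower, against 1971 and 672 on the deposited TPM. Relative to the median of all tested genes on the deposited scale, the log2 fold changes were -4.55 for Itgax, -2.56 for Itgam, -1.57 for Itgav, -1.47 for Itga5, -1.37 for Itgb2 and 1.40 for Itga4. The same relative values were -1.18 for Itgb5, -0.90 for Itga6, -0.31 for Itgb1 and 0.0027 for Itgal.

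The order of the 10 genes by level also differed between the genotypes. In Plcg2-/- microglia the means ran from Itgb2 at 605 TPM through Itgb1, Itgb5, Itgam, Itgal, Itga5, Itgav, Itga4 and Itga6 to Itgax at 12.5 TPM. In Plcg2+/+ microglia they ran from Itgb2 at 1370 TPM through Itgam, Itgb1, Itgax, Itgb5, Itga5, Itgav, Itgal and Itga6 to Itga4 at 6.95 TPM. In Plcg2-/- the ranges of neighbouring genes overlapped from Itgb5 through Itgam to Itgal and from Itga5 down to Itgax, so the order of those neighbours is not fixed. Genes further apart in a run could still differ, as Itga5 (30.9 to 37.5 TPM) lay above Itga4 (17.7 to 28.0 TPM). In Plcg2+/+ Itgax overlapped Itgb1 above and Itgb5 below, and Itga5, Itgav and Itgal overlapped in turn, while Itgb2, Itgam, Itga6 and Itga4 stood apart from their neighbours. The range of Itgam (359 to 511 TPM) did overlap that of Itgax (194 to 368 TPM), which was not its neighbour. Within Plcg2-/-, library 3 was the highest for 7 of the 10 genes, and within Plcg2+/+ library 2 was the highest for 6 of them.

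The sequences just before the start sites of Itgax, Itgam and Itga4 are given because the first pair are neighbours with the largest falls and Itga4 is the gene that rose. RefSeq's promoter table for GRCm38.p6 held 7 of the 10 genes, and 250 bases before the annotated start were read, 5′ to 3′ on the gene's strand. Motifs searched on both strands were GAGGAA, the core bound by the macrophage factor PU.1, TGANTCA, bound by AP-1, the core of the interferon-stimulated response element and TGTGGT, bound by RUNX factors. Capitals mark the matches, none of which overlaps another.
Itgax promoter, chr7:128129300-128129549: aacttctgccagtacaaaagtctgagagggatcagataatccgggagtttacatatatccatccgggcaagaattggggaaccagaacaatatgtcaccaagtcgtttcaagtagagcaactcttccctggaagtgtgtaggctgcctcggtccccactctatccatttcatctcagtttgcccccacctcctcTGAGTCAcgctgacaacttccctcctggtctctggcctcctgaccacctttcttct
Itgam promoter, chr7:128062390-128062639: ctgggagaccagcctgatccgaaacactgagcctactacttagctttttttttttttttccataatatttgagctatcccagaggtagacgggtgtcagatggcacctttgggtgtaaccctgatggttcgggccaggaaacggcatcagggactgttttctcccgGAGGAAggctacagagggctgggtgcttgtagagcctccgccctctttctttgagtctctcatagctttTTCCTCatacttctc
Itga4 promoter, chr2:79255176-79255425: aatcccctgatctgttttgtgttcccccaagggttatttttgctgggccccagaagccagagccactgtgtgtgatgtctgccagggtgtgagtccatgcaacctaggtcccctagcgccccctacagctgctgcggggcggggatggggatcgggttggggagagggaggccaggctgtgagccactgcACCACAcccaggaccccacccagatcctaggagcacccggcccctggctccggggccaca

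The Itgax window held 1 AP-1 match, TGAGTCA, 50 to 56 bases before the start, and no other match. The Itgam window held the PU.1 core on each strand, 79 to 84 and 10 to 15 bases before the start. The Itga4 window held 1 RUNX match on the minus strand, 55 to 60 bases before the start. Of the other 4 genes with a window, Itgav, Itgb1 and Itga5 held the PU.1 core and Itgb5 held none of the motifs. Among 32851 promoter windows of the same length, 23.3% held the PU.1 core, 6.75% the AP-1 motif, 2.98% the interferon-stimulated core and 14.0% the RUNX motif. A match is a description of these letters and shows no binding.

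Around Itgam and Itgax, of 28 tested genes within 500000 bases on either side, members left out, 1 was higher and 2 were lower. These are 10.7% called in either direction, against 20.9% of all tested genes, and 7.14% called lower, close to the 5.31% of all tested genes. The median log2 fold change there was 0.05. Gm49368, which overlaps Itgam, is among the lower ones. Itgal, on the same chromosome, ends 727502 bases before Itgam starts.

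The next list holds partners that switch integrins on, sit beside them in the membrane or tie them to actin. Of 46 such activation and adhesion genes 42 were tested, and 17 rose and 3 fell. These are 40.5% higher, against 15.6% of all tested genes, and 7.14% lower, close to the 5.31% of all tested genes. The median log2 fold change was 0.42, against 0.19 over all tested genes. Zyx, an actin regulator at adhesion sites, rose to 125 ± 8.70 TPM in Plcg2-/-, against 38.4 ± 1.21 TPM in Plcg2+/+, and Tns1, a tensin that links β tails to actin, to 24.7 ± 8.17 TPM in Plcg2-/-, against 5.89 ± 1.35 TPM in Plcg2+/+ (SD, n = 3 each; limma adjusted p = 0.000717 and 0.00583). Cd9, a tetraspanin that associates with integrins, fell to 1229 ± 275 TPM in Plcg2-/-, against 3354 ± 221 TPM in Plcg2+/+, and Lims2, an adaptor of the integrin-linked kinase complex, to 1.14 ± 0.160 TPM in Plcg2-/-, against 5.85 ± 1.23 TPM in Plcg2+/+ (SD, n = 3 each; limma adjusted p = 0.00342 and 0.00258). Ptk2b, of the focal adhesion kinase family, was the third gene that fell and was named after its values were seen (limma adjusted p = 0.0436), and its call was lost on leaving out any single library (limma adjusted p = 0.0536 to 0.128). Cd47, an integrin-associated surface protein gene also named after its values were seen, rose to 297 ± 31.9 TPM in Plcg2-/-, against 164 ± 17.1 TPM in Plcg2+/+ (SD, n = 3 each; limma adjusted p = 0.00696). Rap1a, the small GTPase through which integrins are activated from inside the cell, rose to 246 ± 23.5 TPM in Plcg2-/-, against 130.5 ± 18.9 TPM in Plcg2+/+ (SD, n = 3 each; limma adjusted p = 0.00739). Talin and kindlin 3 bind the β tails to activate them. Their genes Tln1 and Fermt3, picked like Rap1a for these roles after their values were seen, rose by 0.51 ± 0.12 and 0.57 ± 0.11 log2 units (SE; limma adjusted p = 0.0255 and 0.0153).

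These counts depended on the scale. After median-of-ratios scaling 9 of the 42 adaptor genes were higher and 6 lower, where 975 and 993 of 12652 tested genes were. Tln1 and Fermt3 then did not pass (limma adjusted p = 0.102 and 0.0686). The number called higher was 5 and 8 on leaving out Plcg2-/- 1 and 3, and 5 and 8 on leaving out Plcg2+/+ 1 and 2. Over all tested genes the number called higher in the same 4 fits was 559, 786, 782 and 940, against 1971 in the main fit. The adaptor count thus fell along with that of all tested genes. The adjusted p of Tln1 was 0.0990, 0.0888, 0.0900 and 0.0613 by limma in those 4 fits, and that of Fermt3 was 0.0655 without Plcg2-/- 1 and 0.0562 without Plcg2+/+ 1.

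Of 34 ligand genes of these integrins 17 were tested, and 5 fell and 1 rose. These are 29.4% lower, against 5.31% of all tested genes, and 5.88% higher, against 15.6%. The median log2 fold change was -0.29, against 0.19 over all tested genes. Spp1, which encodes osteopontin, a ligand of the αv integrins, was 1114, 3136 and 1857 TPM in Plcg2-/-, against 24333, 24709 and 19155 TPM in Plcg2+/+. Mfge8, which bridges apoptotic cells to αv integrins, was 314, 642 and 498 TPM in Plcg2-/-, against 6892, 10247 and 4360 TPM in Plcg2+/+. Fn1, the fibronectin gene, was 5.30, 4.09 and 10.7 TPM in Plcg2-/-, against 75.0, 66.3 and 99.5 TPM in Plcg2+/+. No library of the genotypes overlapped for these genes, and the limma adjusted p was 0.00170 for Spp1, 0.00143 for Mfge8 and 0.00128 for Fn1. Nid1, a basement membrane protein gene, was 0.252 ± 0.143 TPM in Plcg2-/- and 3.24 ± 1.18 TPM in Plcg2+/+ (SD, n = 3 each; limma adjusted p = 0.00822). Lamc1, a laminin chain gene and the fifth of these, fell by 0.63 ± 0.16 log2 units (SE; limma adjusted p = 0.0339), a call lost without each library in turn (limma adjusted p = 0.0660 to 0.112) except Plcg2-/- 2. Icam1, a ligand of the β2 integrins, rose to 130.1 ± 8.51 TPM in Plcg2-/-, against 88.6 ± 2.73 TPM in Plcg2+/+ (SD, n = 3 each; limma adjusted p = 0.0131), and did not pass after median-of-ratios scaling or without Plcg2-/- 1 (limma adjusted p = 0.0732 and 0.0599). Lamc1 and Icam1 were named after their values were seen, to complete the count.

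**Figure D4:**
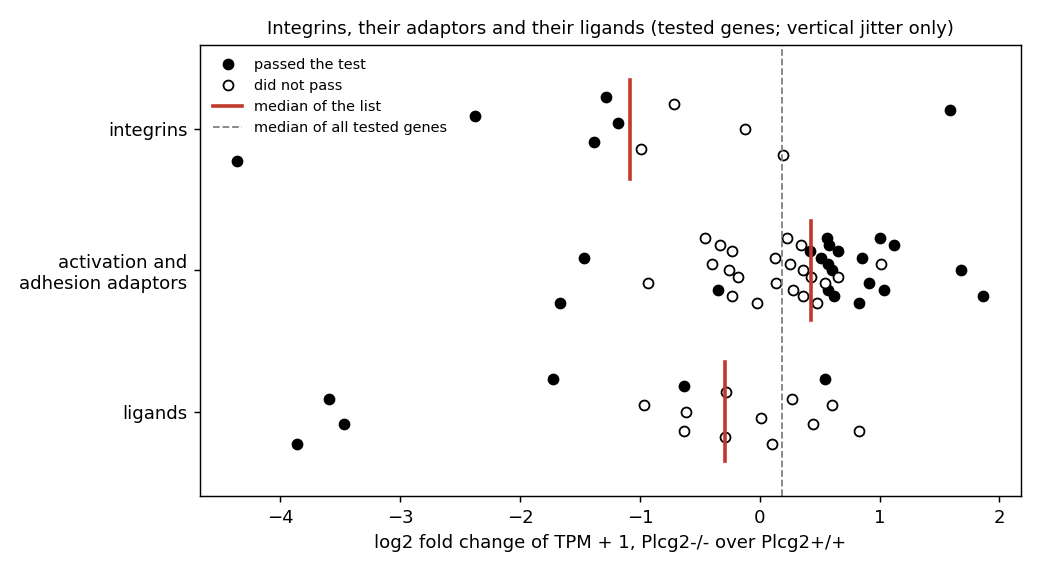
Log2 fold change of TPM + 1, Plcg2-/- over Plcg2+/+, of the tested genes among the 10 integrins (top), their activation and adhesion adaptors (middle) and their ligands (bottom). Filled points passed the limma test, red lines are list medians at -1.09, 0.42 and -0.29, and the dashed line is the median of all tested genes at 0.19.

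For each member that passed with an absolute log2 fold change of at least 1, the closest profiles over the 6 libraries were looked up among 8440 genes, by Euclidean distance between log2(TPM + 1) values centred on each gene's mean. For Itgax they were Mmp12, the macrophage elastase gene, Dok7 and Eef1a2, at distances of 0.41, 0.70 and 0.84. For Itgam they were Egr2, a transcription factor gene, Nkain1 and Zranb3, at 0.24, 0.29 and 0.45, and for Itgb2 they were Dennd11, Fzd7 and Piezo1, at 0.18, 0.19 and 0.25. For Itga4 they were Dab2, an endocytic adaptor gene, 9930111J21Rik2 and Tlr3, a receptor for double-stranded RNA, at 0.23, 0.32 and 0.35. For Itga5 they were Aopep, Rnf149 and Tes, at 0.12, 0.12 and 0.15, and for Itgav Tbxas1, thromboxane synthase, Cd14 and Tmem198b, at 0.28, 0.39 and 0.40. Egr2, the closest to Itgam, was 8.33, 8.12 and 11.9 TPM in Plcg2-/-, against 61.3, 70.2 and 45.7 TPM in Plcg2+/+, and its libraries ranked within each genotype as those of Itgam did. All 6 libraries enter the distance, so genes with a genotype difference of similar size, or a similar order of libraries, come close by this measure.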

How the data were processed

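RNA of 6 libraries was measured, 3 per genotype. Per the labels' protocols, sequencing was paired-end at 150 bp on polyA-selected RNA. Gene-level TPM, 1 column per library, is what the authors deposited. The labels state the same read depth for every library. Each column sums to 1000000, so the depth reached in each library and its counting error are unknown here. The build GRCm38.p6 and the tools R 4.0.4, DESeq2 1.30.1 and Salmon 1.3.0 are named in the submitters' processing notes; the sources used here do not give the annotation release, the step that made the TPM or the strand setting. Positions come from GENCODE M21 (GRCm38), which held 54094 of the row identifiers.

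Log2(TPM + 1) was fitted by genotype with limma 3.58.1 (R 4.3.3; mean-dependent prior variance, two-sided) over the 12652 genes whose mean TPM reached 1, adjusted by Benjamini-Hochberg. Standard errors and 95% intervals are the moderated ones. The fit was tested on simulated data. Median-of-ratios scaling divided each library by its median ratio to the geometric mean over tested genes above 0 in all libraries. Tables and plots used Python 3.11.15, pandas 2.3.3, numpy 2.4.6 and matplotlib 3.10.9.

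The 10 genes and the gene lists were chosen with earlier results of these data known. Named genes were the 10, Plcg2, Itgad, Itgb3, up to 4 genes per list with the smallest p and the 3 closest profiles. Others are marked where they occur. Candidates for the closest profiles had a mean TPM of at least 5. Genes named Gm plus a number, ending in Rik or without a symbol, and X- or Y-linked genes, were left out. Replicate numbers come from the titles. Deviations from genotype means correlated at 0.295, 0.193 and 0.147 between libraries of the same number, all above 0.1. Between libraries of unlike number they correlated at -0.195 to 0.0037. The main fit does not pair libraries, and the replicate number as a block was fitted as an alternative. P-values are unpaired unless the block is named. Same-numbered libraries were unlike in Y-linked TPM (Plcg2-/- first: 58.6 and 0.371, 0.783 and 107, 0.994 and 112).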

Additional observations from a re-analysis of the deposited data

How the results depend on the processing

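The 6 calls on integrin genes kept their direction and their side of the threshold in all 17 alternatives: pseudocounts of 0.1 and 0.5, no filter, a mean of at least 5 TPM, median-of-ratios scaling, quantile normalization, rescaling without mitochondrially encoded genes, constant prior variance, the replicate block alone and with median-of-ratios scaling, the Y-linked level as covariate, and leaving out each of the 6 libraries. Log2 fold changes ranged from -4.61 to -4.06 for Itgax, -2.67 to -2.24 for Itgam, -1.40 to -1.08 for Itgb2, -1.55 to -1.20 for Itga5, -1.64 to -1.25 for Itgav and 1.39 to 1.76 for Itga4. Itgal had -0.023 after median-of-ratios scaling, with or without the replicate block, and -0.12 after quantile normalization. Csf1r had -0.028 after quantile normalization. Itga6 passed at -0.71 with a mean of at least 5 TPM, -0.96 after quantile normalization and -0.92 with the replicate block and median-of-ratios scaling, and ranged from -0.94 to -0.56 without 1 library. Itgb5 passed at -0.99 with a mean of at least 5 TPM or the replicate block, -1.28 after quantile normalization and -1.20 with the replicate block and median-of-ratios scaling, and ranged from -1.24 to -0.73 without 1 library. The replicate block changed no other call among the 10 genes; the causes of these moves were not tested.

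Counts over all tested genes, higher and lower, were 1226 and 500 with no filter, 975 and 993 after median-of-ratios scaling, 967 and 1029 after quantile normalization, 1223 and 803 without mitochondrially encoded genes, 1104 and 1127 with the replicate block and median-of-ratios scaling and 842 and 375 with the Y-linked covariate. Without 1 library they ranged from 559 to 2106 and from 276 to 644. Of other integrin subunits, Itgb3 was the 1 lower; 0 were lower with no filter, after median-of-ratios scaling, quantile normalization or rescaling without mitochondrially encoded genes, with constant prior variance, and 0 to 1 without 1 library. Adaptor genes counted 11 higher with no filter, 9 and 6 after median-of-ratios scaling, 5 and 7 after quantile normalization, 5 lower with the replicate block, 10 and 7 with the replicate block and median-of-ratios scaling and 5 higher with the Y-linked covariate; without 1 library 5 to 18 were higher. Ligand genes called higher were 0 after median-of-ratios scaling, quantile normalization and with the Y-linked covariate, 2 with the replicate block and 0 to 2 without 1 library. TPM carries no read counts, so the precision of low genes such as Itgb3, Itgb7 and Nid1 cannot be stated.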
